A study of Mus musculus with 4 samples.

Results

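The Kruppel-like factors (KLF) described here are 10 of the 55401 genes listed in the deposited count files, namely Klf2, Klf3, Klf4, Klf6, Klf7, Klf9, Klf10, Klf11, Klf12 and Klf13, taken by their gene symbols. They were measured by RNA-seq in B220+ B cells sorted from the spleen of C57BL/6J mice, in 2 libraries from NSD1B WT mice (Mb1-Cre+ NSD1+/+) and 2 from NSD1B KO mice (Mb1-Cre+ NSD1fl/fl). Both genotypes carry Mb1-Cre, which is driven by Cd79a and acts in the B lineage, and in NSD1B KO it removes exons 6 to 8 of Nsd1, a histone methyltransferase of lysine 36 on histone H3. The controls were littermates, and mice of both sexes aged 7 to 9 weeks were used for most experiments. The comparison asks what the loss of NSD1 in B cells does to the mRNA of each factor.

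KLF proteins bind GC-rich and CACCC elements in promoters through zinc fingers at their carboxyl end, and they differ in the cofactors that the rest of the protein recruits. Klf2 keeps naive lymphocytes quiescent and sustains the receptors that guide them between blood and lymphoid organs. In B cells Klf2 and Klf3 bear on the choice between the follicular and the marginal zone fate, and Klf4 and Klf9 restrain proliferation. Several members, among them Klf2, Klf4, Klf6 and Klf10, also respond quickly to stimulation in many cell types.

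Promoters of members that were higher in NSD1B KO (Klf4, Klf9 and Klf11), of the most abundant member (Klf2) and of Klf8, a relative that was higher as well, are shown because KLF proteins bind such elements in one another's promoters. Each runs from 250 bases before to 50 bases after the start in RefSeq (GRCm38.p6), with the motif CACCC, or GGGTG where it lies on the other strand, in capitals. Klf2 is on the plus strand at chr8:72318812-72319111, Klf4 on the minus strand at chr4:55532426-55532725, Klf9 on the plus strand at chr19:23140976-23141275 and Klf11 on the plus strand at chr12:24651121-24651420. Klf8 has a start at chrX:153237498-153237797 and another at chrX:153359363-153359662, both on the plus strand.
Klf2: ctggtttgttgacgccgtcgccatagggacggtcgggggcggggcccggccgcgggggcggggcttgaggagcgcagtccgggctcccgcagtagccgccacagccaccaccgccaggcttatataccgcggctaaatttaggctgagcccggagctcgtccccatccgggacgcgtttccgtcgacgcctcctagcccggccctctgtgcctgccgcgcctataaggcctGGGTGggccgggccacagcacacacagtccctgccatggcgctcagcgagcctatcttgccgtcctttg
Klf4: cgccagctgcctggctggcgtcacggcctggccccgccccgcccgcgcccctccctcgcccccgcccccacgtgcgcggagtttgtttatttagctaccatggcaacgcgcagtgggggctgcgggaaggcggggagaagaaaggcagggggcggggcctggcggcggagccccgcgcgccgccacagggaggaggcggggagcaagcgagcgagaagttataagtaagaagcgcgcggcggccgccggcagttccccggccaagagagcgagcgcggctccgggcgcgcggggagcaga
Klf9: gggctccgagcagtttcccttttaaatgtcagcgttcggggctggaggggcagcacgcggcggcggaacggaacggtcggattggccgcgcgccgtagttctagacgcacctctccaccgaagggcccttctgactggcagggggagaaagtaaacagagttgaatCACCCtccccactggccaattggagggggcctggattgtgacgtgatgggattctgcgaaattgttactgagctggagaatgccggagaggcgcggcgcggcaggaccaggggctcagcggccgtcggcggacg
Klf11: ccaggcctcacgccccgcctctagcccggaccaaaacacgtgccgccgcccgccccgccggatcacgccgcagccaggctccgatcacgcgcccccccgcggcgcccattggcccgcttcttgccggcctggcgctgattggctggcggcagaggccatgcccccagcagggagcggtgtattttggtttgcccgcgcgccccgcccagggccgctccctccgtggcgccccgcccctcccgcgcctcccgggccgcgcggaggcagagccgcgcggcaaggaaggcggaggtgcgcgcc
Klf8, upstream start: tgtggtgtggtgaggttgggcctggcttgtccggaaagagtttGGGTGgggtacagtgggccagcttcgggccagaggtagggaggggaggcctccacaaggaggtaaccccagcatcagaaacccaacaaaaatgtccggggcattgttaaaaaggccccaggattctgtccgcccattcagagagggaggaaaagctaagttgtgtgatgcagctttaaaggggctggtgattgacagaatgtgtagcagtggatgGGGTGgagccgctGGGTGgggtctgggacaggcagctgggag
Klf8, downstream start: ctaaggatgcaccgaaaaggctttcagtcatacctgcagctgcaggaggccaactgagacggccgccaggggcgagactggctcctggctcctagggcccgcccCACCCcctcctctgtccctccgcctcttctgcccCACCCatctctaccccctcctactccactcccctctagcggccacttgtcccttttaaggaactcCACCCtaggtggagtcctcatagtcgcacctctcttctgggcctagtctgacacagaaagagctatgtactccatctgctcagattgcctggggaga
CACCC was found on either strand in 6 of the 9 member promoters in the table, and in 57.52% of 32851 promoters of the same length. The GC box GGGCGG was found in 7 of the 9, and in 35.66% of all promoters. Klf4 and Klf11 held no CACCC and 4 GC boxes each, Klf9 held 1 CACCC and no GC box, Klf2 held 1 CACCC and 2 GC boxes, and each Klf8 start held 3 CACCC and 1 GC box. Promoters of Klf3 held 5 CACCC and 6 GC boxes, those of Klf7 held 3 and 1, of Klf13 1 and 3, of Klf12 1 and 0, and of Klf6 0 and 1. These matches describe the letters in the window and are no evidence of binding.

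Between 6769118 and 7566834 reads were counted on genes per library, and 11657 genes had enough counts to be tested. Nsd1 itself had 497 and 480 counts in NSD1B WT and 284 and 280 in NSD1B KO, a fitted log2 fold change of -0.74 (standard error (SE) 0.11, adjusted p = 8.08e-08), so its mRNA was lower in NSD1B KO but still present, and counts per gene do not measure the deleted exons alone. All 10 markers of B cells were counted in every library, with summed levels of 13209 to 13486 counts per 1000000 (CPM) in NSD1B WT and 11644 to 12681 in NSD1B KO. Of these markers, 7 were called lower, 1 higher and 2 were not called, with a median log2 fold change of -0.33. Over all tested genes 41.1% were called lower. Pax5, a factor that maintains B cell identity, was the marker with the largest change among those called lower, with 279, 342, 30 and 31 counts. Ebf1, another transcription factor of the list, was the 1 called higher, with 329, 372, 577 and 558 counts. Markers of erythroid cells and platelets differed widely between the genotypes, with summed levels of 193 to 202 CPM in NSD1B WT and 1919 to 2166 in NSD1B KO. Of 12 such markers, 6 were tested and all 6 were called higher, against 37.1% of all tested genes. Epor and Klf1 had 0 counts in all 4 libraries. In such bulk samples fewer cells of a type and less RNA per cell cannot be told apart. The sources do not say that the libraries came from separate mice, so p-values measure only the spread between these libraries, which may be technical.

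Among the 10 members, Klf4, Klf9 and Klf11 were higher in NSD1B KO, Klf10 was lower, and the abundant Klf2, Klf3 and Klf6 together with Klf7 and Klf13 did not pass the thresholds of adjusted p below 0.05 and a fold above 1.2. Klf12 had too few counts to be tested. Calls were the rule in these data: of all tested genes 37.1% were called higher, 41.1% lower and 78.2% in either direction, and 21.8% were not called. Of the members, 9 were tested, 4 were called and 5 were not. The share called was 74.0% among the 2915 tested genes of highest level, which include Klf2, Klf3 and Klf6, and 79.2% among the 2914 of lowest level. With stricter thresholds (adjusted p of 1e-05, log2 change of 0.5 in either direction), Klf10 and Klf11 were the members called, and 57.2% of tested genes were. Klf9 and Klf11 reached the test through their counts in NSD1B KO alone and therefore had to differ, and of the 7 members with enough counts in both genotypes 2 were called and 5 were not. The median log2 fold change of the tested members was 0.06, against -0.10 over all tested genes, and it turned to -0.02 when only library size was used for scaling. The libraries of the genotypes did not overlap in 88.0% of tested genes, which is the background for each statement on overlap below.

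**Figure D1:**
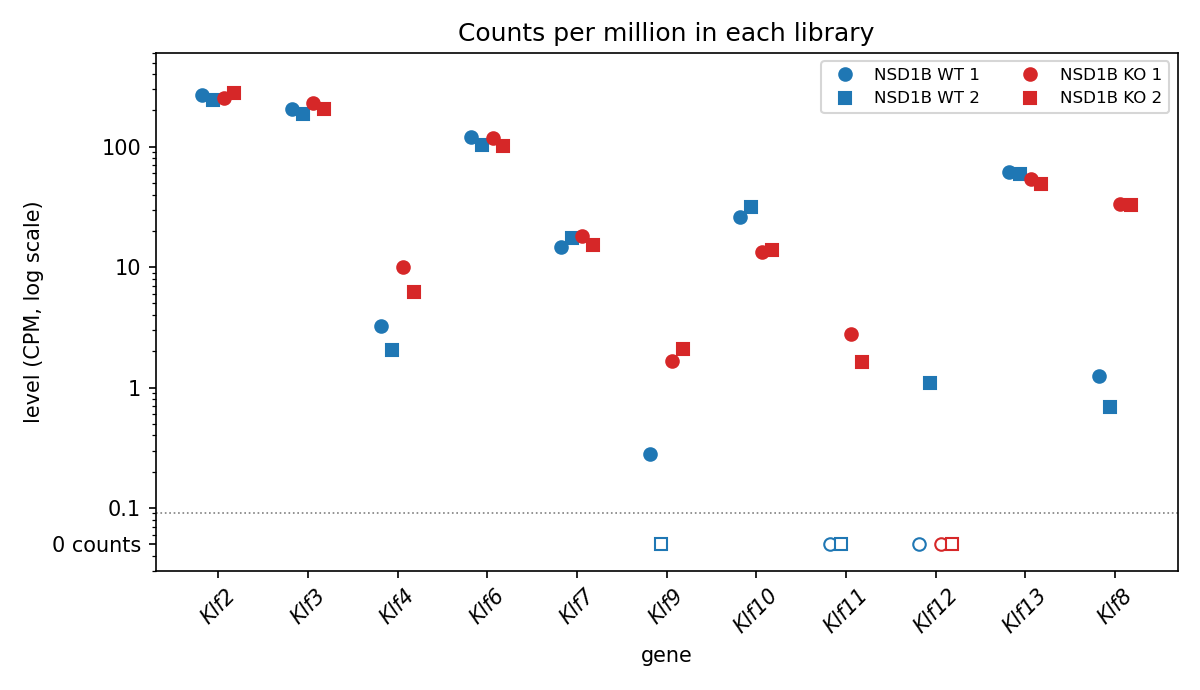
Level of each KLF member and of Klf8 in each library, in CPM on a log scale, with circles for replicate 1, squares for replicate 2 and open symbols for 0 counts. The libraries of Klf2, Klf3, Klf6 and Klf7 intermingle, those of Klf4, Klf9, Klf11 and Klf8 are higher in NSD1B KO, and those of Klf10 and Klf13 are lower.

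Klf2 was the most abundant member and its level was close in both genotypes. The gene lies on chromosome 8 from 72319033 to 72321656 on the plus strand (mm10, GENCODE M21). Klf2 had 269 and 245 CPM in NSD1B WT and 253 and 277 CPM in NSD1B KO, from 1924, 1794, 1822 and 1867 counts. The libraries interleave, with the lowest in NSD1B WT and the highest in NSD1B KO, and the groups overlap. The means were 257 ± 16.9 and 265 ± 17.1 CPM (SD, n = 2 each), a log2 fold change of 0.04 (SE 0.08, adjusted p = 0.626 by edgeR's quasi-likelihood test) with a 95% interval from -0.12 to 0.21, so a difference of up to that size is not excluded. Klf2 was nearer to no change than most genes, since only 2.47% of tested genes had a smaller absolute log2 fold change. This value depended on base composition. Klf2 is richer in GC than 98.6% of tested genes, at 61.6% of its exon bases, and the 324 tested genes with at least 60% GC had a median log2 fold change of -0.50. When the trend with exon length and GC content was removed, Klf2 was called higher in NSD1B KO, by 0.62 on the log2 scale (SE 0.08, adjusted p = 1.94e-07). Whether the trend is technical was not tested.

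The genes whose profile lay closest to that of Klf2 over the 4 libraries, among 7068 candidates, were Cox6c, Dnah17, Efl1, Wtap and Tyrobp. Their root mean square differences from Klf2 in centred log2 CPM were 0.0228, 0.0283, 0.0290, 0.0291 and 0.030. With 4 libraries and a nearly flat profile, this likeness is a description of small deviations and carries no test.

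Klf6, an early response factor found in most tissues, and Klf7, a close relative of Klf6 known from the nervous system, did not pass the test either. Klf6 (chromosome 13, 5861482 to 5870394, plus strand) had 120 and 104 CPM in NSD1B WT and 118 and 101 CPM in NSD1B KO. In both genotypes replicate 1 was the higher library, and the groups overlap. The log2 fold change of Klf6 was -0.04 (SE 0.10, adjusted p = 0.726, 95% interval -0.23 to 0.16), and once that trend was removed it was called lower at -0.28 (adjusted p = 0.00890). Klf7 (chromosome 1, 64029447 to 64122282, minus strand) had 14.7 and 17.3 CPM in NSD1B WT and 18.05 and 15.3 CPM in NSD1B KO. These libraries interleave, with the lowest and the second highest both in NSD1B WT, and the log2 fold change was 0.06 (SE 0.19, adjusted p = 0.787, 95% interval -0.33 to 0.45). The exons of Klf7 share 3196 bases with Gm26649 on the other strand, so its counts are uncertain if strand was not used.

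Klf4, which slows proliferation of B cells and promotes monocyte differentiation, was higher in NSD1B KO at a low level. The gene lies on chromosome 4 from 55527143 to 55532466 on the minus strand. It had 23 and 15 counts in NSD1B WT and 72 and 42 in NSD1B KO, and its NSD1B WT libraries held 3.21 and 2.05 CPM. Both NSD1B KO libraries were above both NSD1B WT libraries, although the libraries within a genotype also differed, by 0.65 and 0.68 on the log2 scale. The means were 2.63 ± 0.824 and 8.12 ± 2.66 CPM (SD, n = 2 each), a 3.09-fold difference with a log2 fold change of 1.63 (SE 0.35, adjusted p = 4.44e-05). Klf4 stayed higher and called under every alternative but the stricter thresholds, with values from 1.24 to 2.01.

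Markers of other cells that express Klf4 are given beside it, and they were mixed. Of 13 myeloid markers, 10 were tested, 6 were higher, 3 were lower and 1 was not called, and the median log2 fold change was 0.63. Their summed levels were 4805 and 4895 CPM in NSD1B WT and 6305 and 5932 CPM in NSD1B KO, and the neutrophil markers Ly6g and Elane had 0 counts in all 4 libraries. Most of that sum was Lyz2, the lysozyme of macrophages, with a log2 fold change of 0.35 (SE 0.08), and Csf1r, the receptor of macrophage growth factor, had 23, 27, 375 and 335 counts. The macrophage marker Adgre1 and the perforin-like Mpeg1 both had log2 fold changes of 0.91, whereas Itgam and the complement gene C1qa were lower at -0.80 and -0.78 and C1qb was not called. The partners S100a8 and S100a9 of neutrophils differed in direction, with 39, 28, 0 and 0 counts for S100a8 and 0, 0, 13 and 13 for S100a9. Of the endothelial markers, another source of Klf2 and Klf4, Cdh5, Kdr and Tie1 had 0 counts in all 4 libraries, and Pecam1, which leukocytes also express, had 493, 558, 657 and 540 counts and was not called. The cells had been sorted for B220 with their purity checked, and the part of myeloid cells in the Klf4 result was not tested.

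Klf3 and Klf12 recruit the corepressor CtBP. Klf3 was not called and Klf12 was not tested. Klf3 (chromosome 5, 64803388 to 64832901, plus strand) had 207 and 187 CPM in NSD1B WT and 232 and 204 CPM in NSD1B KO. The lower NSD1B KO library lies below the higher NSD1B WT library, so the groups overlap. The means were 197 ± 14.1 and 218 ± 20.0 CPM (SD, n = 2 each), a log2 fold change of 0.15 (adjusted p = 0.110) with a 95% interval from -0.02 to 0.32. The exons of Klf3 share 404 bases with Gm20033 on the other strand, which had 3 and 7 counts in NSD1B WT and 90 and 54 in NSD1B KO. Klf12 (chromosome 14, 99870632 to 100284679, minus strand) had 8 counts in 1 NSD1B WT library and 0 in the other 3 libraries. Against the limit of 3 counts over the group, Klf12 was at least 2.57-fold lower in NSD1B KO, and 1 NSD1B WT library was itself at 0. With a filter of 1 count in any library it was tested and called lower (adjusted p = 0.0481), on the 8 counts of 1 library.

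The remaining members, Klf9, Klf10, Klf11 and Klf13, recruit the Sin3 corepressor, and they split. Klf10, the TGF-beta inducible early gene 1, was lower in NSD1B KO. It lies on chromosome 15 from 38291463 to 38300706 on the minus strand and had 185 and 232 counts in NSD1B WT and 97 and 93 in NSD1B KO, or 25.9, 31.7, 13.5 and 13.8 CPM. Both NSD1B KO libraries were below both NSD1B WT libraries and lay close together. The means were 28.8 ± 4.13 and 13.6 ± 0.240 CPM (SD, n = 2 each), 2.11-fold higher in NSD1B WT, with a log2 fold change of -1.08 (SE 0.18, adjusted p = 3.33e-07). Klf10 stayed lower and called under every alternative, from -1.19 to -0.90. Its change was an ordinary one here, since 48.0% of tested genes changed less.

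Klf11, the TGF-beta inducible early gene 2 and closest relative of Klf10, went the other way. It lies on chromosome 12 from 24651274 to 24662789 on the plus strand and had 0 counts in both NSD1B WT libraries and 20 and 11 counts in NSD1B KO. Its mean level in NSD1B KO was 2.21 ± 0.809 CPM (SD, n = 2), at least 10.7-fold higher than the limit of 3 counts over the NSD1B WT group, and the adjusted p was 1.12e-07. Having 0 counts in both NSD1B WT libraries was true of 7.63% of tested genes. Klf9, a factor induced by glucocorticoid and thyroid hormone, had 2 and 0 counts in NSD1B WT and 12 and 14 in NSD1B KO. Both NSD1B KO libraries were above both NSD1B WT libraries, and the ratio of the scaled counts was 13.5 with a 95% interval from 3.38 to 117, which covers counting error only (adjusted p = 2.17e-05 in the fit). Klf9 lies on chromosome 19 from 23141226 to 23168134 on the plus strand. Both genes were at about 2 CPM in NSD1B KO, and neither could be tested when the filter asked for 1 CPM in all 4 libraries. Both had passed the filter through NSD1B KO alone, so their adjusted p-values give no separate support for a difference.

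Klf13, a factor that acts late in T cell activation and in B cell development, lay slightly lower in NSD1B KO without being called. Klf13 (chromosome 7, 63886351 to 63938915, minus strand) had 62.2 and 59.7 CPM in NSD1B WT and 53.9 and 48.8 CPM in NSD1B KO. Both NSD1B KO libraries were below both NSD1B WT libraries. The log2 fold change was -0.25 (SE 0.11, adjusted p = 0.0388), 1.19-fold higher in NSD1B WT and so under the fold of 1.2. Klf13 was called lower under library size alone, upper quartile scaling, the filter of 1 CPM and without NSD1B KO replicate 1 (-0.33 to -0.28), while it stood at 0.047 once the trend with length and GC was removed.

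**Figure D2:**
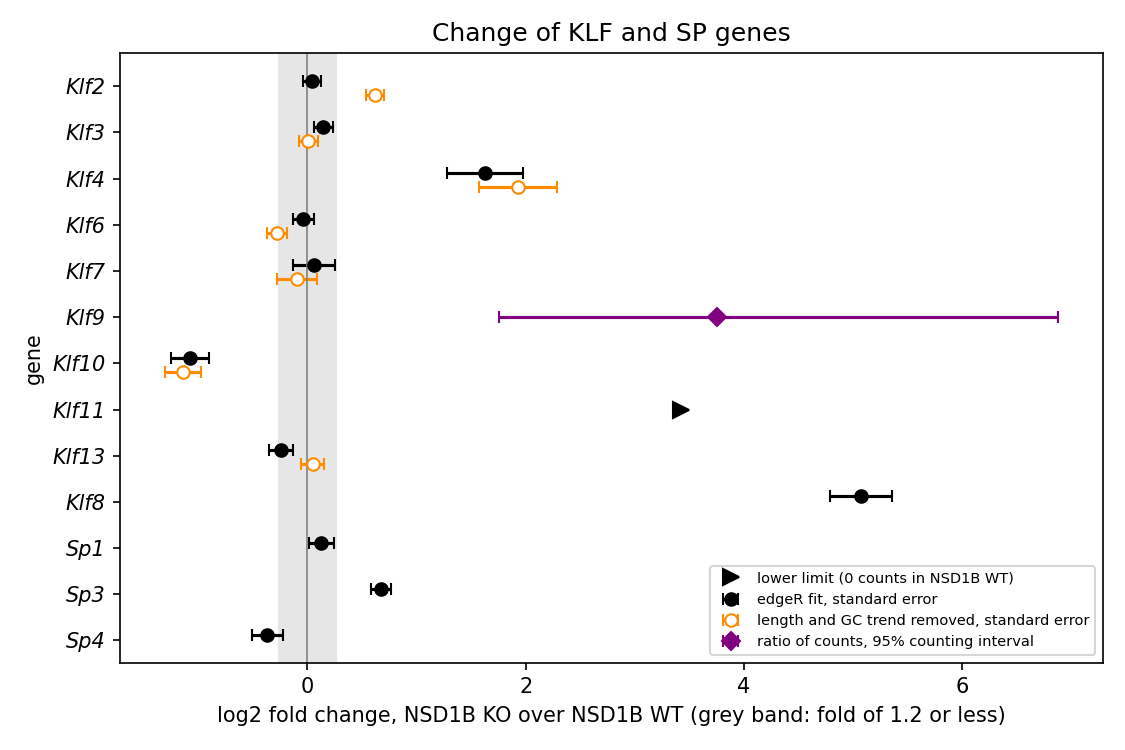
Log2 fold change of NSD1B KO over NSD1B WT for the tested KLF and SP genes, as the edgeR fit (black, SE), after removal of the length and GC trend (orange, SE, members only), as a ratio of counts with its 95% counting interval (purple, Klf9) or as a lower limit (triangle, Klf11). Klf8 at 5.07 is farthest to the right among the fitted genes, Klf10 at -1.08 farthest to the left, and Klf2 is the member whose value shifts most after that removal, from 0.04 to 0.62.

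Per kilobase of exon the order of the members was nearly the same in both genotypes. In NSD1B WT the levels per kilobase were 139 CPM for Klf2, 25.5 for Klf6, 17.5 for Klf3, 8.09 for Klf13, 6.89 for Klf10, 1.97 for Klf7 and 0.863 for Klf4. Each of these neighbours was separated by the libraries, whereas Klf12, Klf9 and Klf11 at the bottom overlapped. In NSD1B KO the levels per kilobase were 144 CPM for Klf2, 24.8 for Klf6, 19.4 for Klf3 and 6.82 for Klf13, again without overlap. Below them Klf10 at 3.26 stayed above Klf7 at 2.05 CPM per kilobase. Klf4 at 2.66 overlapped both and could not be placed, and Klf11 at 0.508 overlapped Klf9 at 0.389. Thus Klf10 was above Klf7 and Klf4 in NSD1B WT, and its libraries overlapped those of Klf4 in NSD1B KO.

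The family total per kilobase was similar in the 4 libraries, at 209 and 191 CPM in NSD1B WT and 201 and 206 CPM in NSD1B KO. Klf2 held 69.8% and 69.3% of it in NSD1B WT and 68.1% and 73.0% in NSD1B KO. Together Klf2, Klf3 and Klf6 held 90.4% to 92.9% in all 4 libraries. Klf10 held 2.96% and 3.96% in NSD1B WT and 1.60% and 1.61% in NSD1B KO, and Klf4 held 0.505% and 0.351% against 1.63% and 0.995%. In the main fit none of the members called in either direction was among the 4 highest per kilobase. There the bulk of KLF mRNA belonged to the members that were not called. That did not hold in every alternative, since Klf13 was called lower in some of them. With the length and GC trend removed, Klf2 was called higher and Klf6 lower, so most KLF mRNA then belonged to called members.

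**Figure D3:**
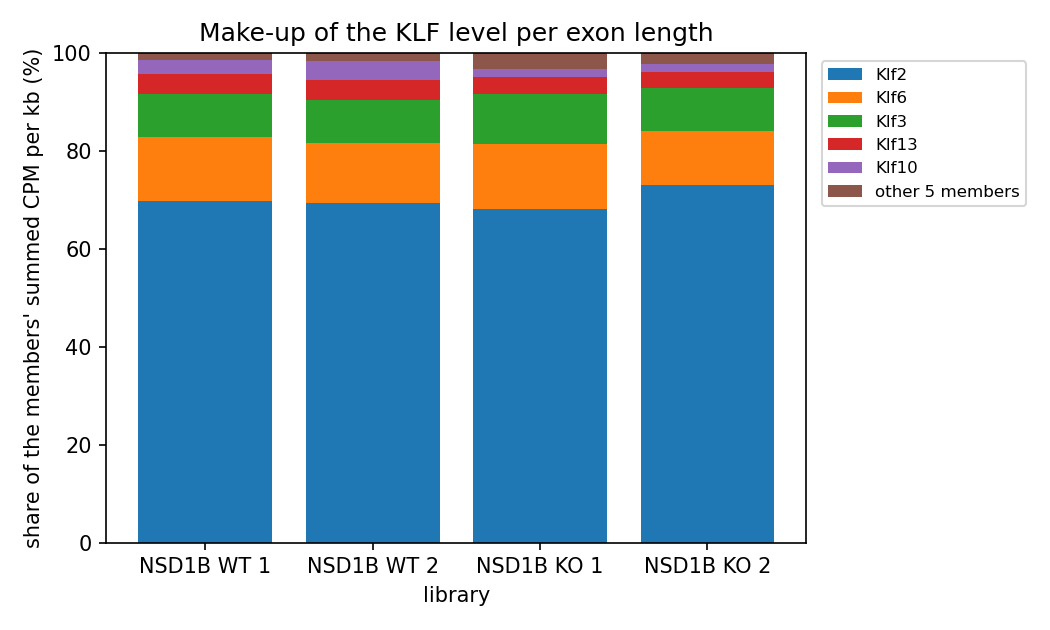
Share of each member in the summed KLF level per kilobase of exon, in percent, with 1 bar per library. Klf2 takes 68.1% to 73.0% in every bar, and the Klf10 band is narrower in both NSD1B KO bars.

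Of the KLF genes outside the 10, Klf8 was the one that could be tested, and it was much higher in NSD1B KO. Klf8, a CtBP-binding repressor whose promoters are a known target of Klf3, lies on chromosome X from 153237466 to 153396132 on the plus strand. It had 9 and 5 counts in NSD1B WT and 241 and 221 in NSD1B KO, or 1.26, 0.683, 33.5 and 32.8 CPM. The genotypes were far apart and the NSD1B KO libraries nearly equal, with means of 0.971 ± 0.407 and 33.1 ± 0.460 CPM (SD, n = 2 each). The log2 fold change was 5.07 (SE 0.29, adjusted p = 4.59e-21), with values from 4.72 to 5.59 over the alternatives. Like Klf9 and Klf11, Klf8 reached the test through its counts in NSD1B KO alone and therefore had to differ. Its adjusted p thus gives no separate support, and 77.8% of tested genes had a smaller absolute log2 fold change. In NSD1B KO the level of Klf8 per kilobase was 6.36 CPM, beside 6.82 for Klf13. Klf16 had 7 and 13 counts in NSD1B WT and 1 and 0 in NSD1B KO and was not tested. Klf1, Klf5, Klf14, Klf15 and Klf17 had 0 counts in all 4 libraries.

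The SP factors bind the same GC boxes as the KLF factors, and 3 of the 9 genes were tested. Sp1 had 388, 374, 386 and 415 counts and was not called (log2 fold change 0.13, adjusted p = 0.293). Sp3 was higher in NSD1B KO with 669, 657, 1124 and 913 counts, a log2 fold change of 0.67 (SE 0.09, adjusted p = 7.85e-09), and its exons share 109 bases with Sp3os on the other strand, which had 356, 354, 822 and 711 counts. Sp4 was lower with 294, 260, 233 and 181 counts, a log2 fold change of -0.37 (SE 0.14, adjusted p = 0.0157).

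Cofactors of the KLF proteins were called about as often as all tested genes, of which 78.2% were called. Of 16 genes for KLF partners and turnover, 14 were tested, 7 were higher, 5 were lower and 2 were not called, with a median log2 fold change of 0.32. Among the corepressors, Sin3a was lower with 161, 176, 56 and 58 counts (-1.51, SE 0.21), and its paralogue Sin3b was higher with 410, 426, 819 and 705 counts (0.92, SE 0.10). Ctbp1, the partner of Klf3, Klf8 and Klf12, was lower with 397, 363, 202 and 163 counts (-1.01, SE 0.13), and Ctbp2 had 0 and 0 against 3 and 12 counts and was not tested. The deacetylase Hdac2 was higher at 1.74 on the log2 scale and Hdac1 was not called at 0.17, and of the acetyltransferases Crebbp was higher at 1.58 and Ep300 lower at -0.76. Among ubiquitin ligases, the Klf2 ligase Wwp1 was higher at 0.49 (adjusted p = 0.0346), as were Fbxw7 at 0.48 (adjusted p = 0.00665) and Smurf1, with 0 counts in NSD1B WT and 17 in each NSD1B KO library, at least 11.8-fold higher. Mdm2 was lower at -1.28, while Fbxo32 had 44 and 45 counts in NSD1B WT and 0 in NSD1B KO, at least 28.6-fold lower.

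The genes that control Klf2 transcription are described next. In many cells the kinase chain of Map3k2 or Map3k3, Map2k5 and Mapk7 activates MEF2 factors at the Klf2 promoter, FOXO factors add to it, and signalling by PI3K opposes it. Of 12 such genes, 11 were tested, 4 were higher, 5 were lower and 2 were not called, and the median log2 fold change was -0.28. These counts are near the background of 37.1% higher and 41.1% lower among all tested genes, against which the counts of the lists below also stand. The higher ones were Mef2c (637, 665, 1282 and 1076 counts, log2 fold change 0.91), Mef2a (1.54), Map2k5 (7, 6, 93 and 49 counts, 3.47) and Map3k3 (1, 1, 20 and 15 counts, a ratio of 18.2 with a counting interval of 4.67 to 156). The lower ones included Map3k2 (-1.38), Foxo1 (125, 123, 61 and 52 counts, -1.08), Foxo3 (-2.78) and the PI3K subunit Pik3cd (601, 643, 306 and 284 counts, -1.02). Mapk7, the last kinase of the chain, had 1 count in 1 library of each genotype.

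Homing and integrin genes linked to Klf2 and Klf3 were mixed, with 13 genes, 12 tested, 3 higher, 4 lower and 5 not called, and a median log2 fold change of -0.01. S1pr1, the exit receptor that Klf2 sustains in lymphocytes, had 1082, 1129, 1298 and 1175 counts and was 1.16-fold higher in NSD1B KO, under the fold of 1.2 (log2 fold change 0.22, adjusted p = 0.0182). Itgb7, a gut homing integrin that Klf2 also sustains in B cells, was lower with 1041, 1104, 544 and 462 counts (-1.04, SE 0.09, adjusted p = 4.56e-14). Itgb1 at -0.33, Itga4 at -0.34 and S1pr4 at -0.56 were the other lower ones. Lgals3, the galectin gene repressed by Klf3, was higher at 0.70 (SE 0.09), and Cxcr4 had 1, 4, 53 and 53 counts. The chemokine receptors Ccr7 and Cxcr5 were not called, at 0.16 and 0.05.

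Of 16 quiescence genes, 14 were tested, 5 were higher, 4 were lower and 5 were not called, with a median log2 fold change of 0.13. Myc, the gene of a growth-promoting transcription factor that Klf2 and Klf4 hold down in resting lymphocytes, was lower with 2027, 1856, 555 and 455 counts (-1.89, SE 0.09, adjusted p = 1.44e-23). Btg1 (0.38) and Foxp1 (0.62), which keep lymphocytes resting, were higher, as were the cell cycle inhibitor Cdkn2c (2.24), Tsc2 (1.04) and Rbl2 (0.51). The inhibitor Cdkn2d (-0.78), Tob1 (-0.72) and Tsc1 (-2.17) were lower.

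Proliferation and early response genes are given beside Klf10 and Klf4, which respond to the same stimuli. Of 12 proliferation genes, 8 were tested, none was higher, 6 were lower and 2 were not called, and all 6 had 0 counts in both NSD1B KO libraries. They include Ccnb2 (209 and 251 counts in NSD1B WT), Cdk1 (130 and 141), Ccnb1 (84 and 113) and Top2a (22 and 40), which act in mitosis or DNA untangling, while Pcna at 0.19 and Ccna2 at 0.05 were not called. With those genes at their limits the median of the list was -4.05. Of 19 early response genes, 11 were tested, 3 were higher, 5 were lower and 3 were not called, with a median log2 fold change of 0.08. Ier2 was lower with 279, 239, 91 and 76 counts (-1.58), Nr4a1 had 135, 93, 0 and 1 counts, Egr3 had 48, 52, 0 and 1, and Jun had 28, 19, 0 and 0, and Fos was lower at -0.68. Fosl2 (2.51), Dusp1 (0.48) and Junb (0.37) were higher. The part of cell cycle state or stimulation in the Klf4, Klf10 and Klf11 results was not tested.

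**Figure D4:**
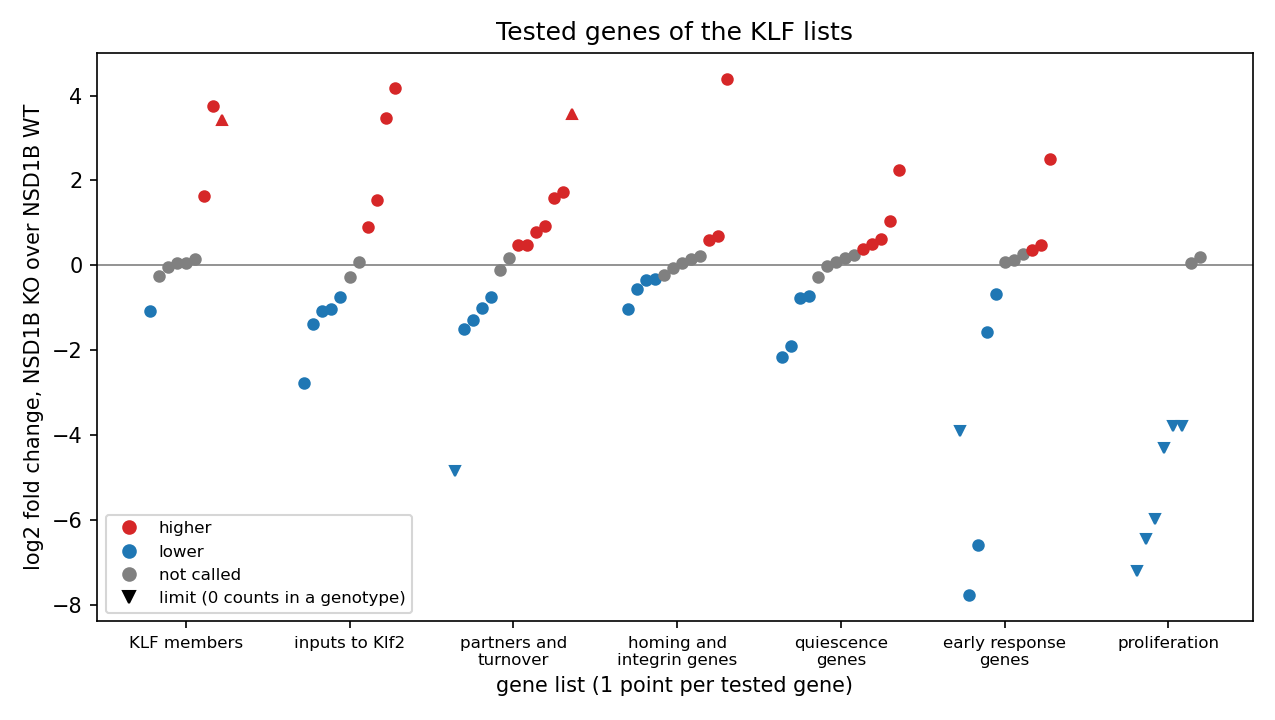
Log2 fold change of NSD1B KO over NSD1B WT for each tested gene of the KLF members and of 6 related lists, coloured by call, with triangles for limits where a genotype had 0 counts and ratios of counts where it had 1 to 3. The KLF members cluster near 0 with 4 called genes around them, while 6 of 8 proliferation genes sit at limits below 0.

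B cell subsets provide the setting for Klf2 and Klf3, which serve as markers of them. Of 6 follicular markers including Klf2, 2 were higher, 1 was lower and 3 were not called, with Fcer2a at 134 and 172 counts in NSD1B WT and 0 in NSD1B KO. Of 9 marginal zone markers including Klf3, 7 were tested, 1 was higher, 4 were lower and 2 were not called, with a median log2 fold change of -0.98, and the complement receptor Cr2 had 304, 277, 17 and 26 counts. Of 10 B1 markers, 9 were tested, 4 were higher, 4 were lower and 1 was not called. Cd5, among the higher, had 0 counts in NSD1B WT and 120 and 103 in NSD1B KO, at least 77.2-fold higher. Bhlhe41, among the lower, stood at -0.90. Neither Klf2 nor Klf3 was called beside these changes, and the part of subset composition in their values was not tested.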

How the data were processed

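RNA-seq of sorted splenic B220+ B cells was deposited by the authors as 1 raw count per gene for each of the 4 libraries, not normalized and not scaled by length. The submitters' processing notes name mm10, Bowtie2 and Cufflinks, and the FPKM values of Cufflinks were not used here. Which program counted the reads, whether it used strand and which annotation it read is not given in the sources used here. Reads on no gene, 44.3% to 44.6% of those reported, were left out of library sizes. Library totals were 6769118 to 7566834 counts on genes.

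Genotypes were taken from the labels. Positions, exon lengths and GC content were taken from GENCODE M21, where 99.5% of identifiers were found. Counts were scaled by TMM and tested with edgeR 4.0.16 (quasi-likelihood test, R 4.3.3) after the filter filterByExpr (at least 10 counts, at least 15 in total). The p-values were adjusted by the Benjamini-Hochberg method over 11657 genes, and a gene was called at adjusted p below 0.05 and a fold above 1.2, the thresholds of the study with p taken as adjusted. CPM values use the TMM library sizes, and the SD is over 2 libraries. Where both libraries of a genotype had 0 counts, the fold was set against 3 counts over the group, and with 1 to 3 counts the ratio has an exact 95% counting interval. An exact permutation test of a single gene cannot reach 0.05 with 2 libraries per genotype, and none was made. The mean chi-square between libraries of a genotype was 2.99 and 4.57 per degree of freedom, so no library is a copy of another. The procedure was tested on simulated data.

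Members and gene lists were chosen with earlier results of these data known, and no list was tested as a set. Genes were named by a rule: every member, the tested KLF and SP genes, Nsd1, up to 4 called genes of highest CPM per list, genes with 0 counts in a genotype and at least 50 in the other, and the 5 genes closest to Klf2 (mean log2 CPM of 3 or more). Any other gene named was picked with its values in view, and some genes of the lists are not reported here. The alternatives tried were the size factors and the Wald test of DESeq2 1.42.0, library size alone, upper quartile scaling, limma-voom (limma 3.58.1), filters of 1 count in any library and 1 CPM in all 4, each library left out, a replicate block, removal of the length and GC trend by loess with a span of 0.5, both together, stricter thresholds and a prior count of 2. Promoters came from RefSeq (GRCm38.p6) and were searched on both strands in Python 3.11.15.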

Additional observations from a re-analysis of the deposited data

How the results depend on the processing

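Of 155 alternative values for the changes of the tested members and Klf8, 134 kept their direction and their side of the thresholds. Against 3 members higher and 1 lower, the filter of 1 CPM in all 4 libraries left 7 members, without Klf9 and Klf11, and gave 1 higher and 2 lower (Klf10 and Klf13), and over all genes 2855 higher and 2991 lower against 4324 and 4795. With thresholds of adjusted p 1e-05 and log2 0.5, 1 member was higher. There were 2 members lower with library size alone and upper quartile scaling (Klf13 added) and with the filter of 1 count in any library (Klf12 added), and also 2 (Klf6 added) once the trend with length and GC was removed, alone or together with the replicate block. Under both settings with the trend removed 4 members were higher, with Klf2 added. Leaving out each library gave 2 to 3 members higher and 1 to 2 lower, and the 2 lower came without NSD1B KO replicate 1. The sign of a change that was not called reversed for Klf2 with library size alone (-0.033) and without NSD1B KO replicate 2 (-0.017, range over left-out libraries -0.017 to 0.14), for Klf6 without NSD1B WT replicate 1 (0.10) and NSD1B KO replicate 2 (0.08, range -0.16 to 0.10), and for Klf7 with library size alone (-0.021), the trend removed (-0.096), trend and block (-0.094), without NSD1B WT replicate 1 (-0.03) and without NSD1B KO replicate 1 (-0.071, range -0.071 to 0.21). Klf13 reversed to 0.047 with the trend removed and to 0.045 with trend and block. The cause was not tested. The fitted Klf9 value was 3.60, 6.75 without NSD1B WT replicate 1 and 2.69 without NSD1B WT replicate 2. Klf9 could not be tested without NSD1B KO replicate 2, nor Klf11 without NSD1B KO replicate 1. The Wald test of DESeq2 gave 4044 genes higher and 4350 lower, with 3 members higher and 1 lower.

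The replicate numbers come from the titles and nothing says that they pair the libraries. Same-numbered libraries deviated from their genotype means with a correlation of 0.0709 over genes, from 2 pairs. The fit with the replicate block called 4254 genes higher and 4706 lower, with 3 members higher and 1 lower. Depth limits Klf4, Klf9, Klf11 and Klf12, which had few counts, and with 2 libraries per genotype a left-out library leaves 1 that is assumed to vary like the other genotype.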
